A study of Gasterosteus aculeatus with 16 samples.

Results

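Titin-like (ENSGACG00000000272), PGAM2 (ENSGACG00000017684) and ENO3 (ENSGACG00000001113) are 3 genes with names of muscle proteins, measured in whole threespined stickleback embryos. They were taken by gene ID, are 3 of the 17440 genes with logCPM values and of the 22456 gene models with FPKM values, and were read in every clutch. All 3 were picked with their difference between the 2 maternal treatments in view. That difference is therefore given as a description, with no test.

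Titin is the giant protein that spans the sarcomere from its edge to its middle and acts as its molecular spring. PGAM2 and ENO3 encode the muscle forms of phosphoglycerate mutase and enolase, which catalyse consecutive steps late in glycolysis: the mutase makes the 2-phosphoglycerate from which enolase makes phosphoenolpyruvate. Muscle fibres use glycolysis to supply ATP quickly, and in mammals they switch from the general to the muscle forms of these enzymes as they differentiate.

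RNA was measured at 3 days post-fertilization in 8 clutches whose mothers had been exposed to simulated predation risk and in 8 control clutches, with embryos pooled within a clutch and 1 clutch per mother. The exposure was a daily chase with a rubber model of a sculpin, and control mothers were not chased. Exposure was assigned by tank of females. The labels do not tell which mothers shared a tank, so p-values treat clutches as independent. Clutches are called by the 2 numbers of their name, whose meaning the labels do not give.

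Reads in genes numbered 8950867 to 12765406 per clutch, and the limit set by a count of 0, at 3 reads, was 0.235 to 0.335 CPM depending on the clutch (counting error only). Structured non-coding RNAs, taken as the mean of 27 such genes, were above the mean of all clutches in 6 clutches, the exposed clutches 10_5, 17_10, 24_28, 26_28 and 8_10 and the control clutch 15_2. These 27 genes come from the study's list of genes called different between the same 2 groups, so their mean is not independent of the contrast. The share of reads from the mitochondrial genome averaged 1.14% ± 0.380 in the exposed clutches and 0.692% ± 0.0918 in the control clutches (SD, n = 8 per group). In whole embryos, fewer cells of a type and less RNA per cell cannot be told apart. Most genes have no name in the files, so only 7 of 196 muscle and glycolysis symbols could be matched, and the muscle origin of the 3 genes in these embryos was not checked against other tissues. Of the markers of other cell types, 2 of 8 lens and 2 of 6 red cell symbols could be matched. The 3 red cell genes summed to 2937 to 4631 CPM in exposed and 1609.7 to 3660.0 CPM in control clutches, and the 2 lens genes to 59.5 to 153 and 63.8 to 114 CPM. All 5 had higher means in maternally-stressed embryos, as did 34.2% of all genes on logCPM. Of the 5, 0 passed FDR 0.1 in limma, where 0.516% of all genes passed. Gene names came only from the study's list of genes called different on these clutches, so this shared direction is not independent evidence. An unadjusted p under 0.05 was reached by 2 red cell genes and 1 lens gene, and by 16.3% of all genes. Their part in the values below was not tested.

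Titin-like had higher values in maternally-stressed embryos, and the groups overlapped. The gene model is short, 1407 bases on scaffold_69 of the assembly BROADS1 (195181 to 196587), and was read 146 to 512 times per clutch. In embryos of predator-exposed mothers it had 21.9 CPM in the lowest clutch (6_21), a median of 33.7 and 47.4 CPM in the highest (10_5). Control clutches ran from 13.8 CPM (15_5) through a median of 20.5 to 29.2 CPM (15_14). Of the 8 exposed clutches, 5 lay above every control clutch and all 8 lay above the control median, while no control clutch reached the exposed median. The means were 34.2 ± 8.54 and 20.5 ± 5.16 CPM (SD, n = 8 clutches per group), a log2 difference of 0.66 on logCPM (SE 0.15). Over all genes, 0.103% passed FDR 0.1 as higher and 0.413% as lower in maternally-stressed embryos in limma. That share is another measure than the count of clutches above the controls. How many of all genes have such a count was not computed, here or below.

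The per-length values of titin-like gave the same picture. FPKM ran from 13.1 to 23.5 (median 18.4) in exposed clutches and from 7.94 to 17.1 (median 12.1) in control clutches, again with 5 exposed clutches above every control clutch. In limma on this scale, 0.0428% of all models passed FDR 0.05 as higher in maternally-stressed embryos and 0.266% as lower, which again is another measure than that count. The means were 18.6 ± 3.91 and 12.2 ± 3.22 FPKM (SD, n = 8 clutches per group), a difference of 0.58 on log2(FPKM + 1) (SE 0.15). Titin-like was the most variable of the 3 genes between clutches of a group on the CPM scale, with a coefficient of variation of 25.0% in exposed and 25.1% in control clutches. The counting error of single clutches, 4.42% to 8.28%, was well below that spread.

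PGAM2 differed less between the groups and overlapped more. The gene lies on groupXIV from 8912217 to 8913964 and had 274 to 553 reads per clutch. Maternally-stressed embryos had 33.2 CPM in the lowest clutch (10_5), a median of 36.8 and 49.4 CPM in the highest (3_10). Control embryos had 27.8 CPM (13_14), 31.5 and 38.8 CPM (20_28) at the same ranks. The clutches 3_10 and 26_28 were the only 2 exposed clutches above every control clutch, although all 8 lay above the control median. Means were 38.8 ± 5.16 and 32.6 ± 4.03 CPM (SD, n = 8 clutches per group), with a log2 difference of 0.23 (SE 0.08). The clutch that was lowest for PGAM2 among the exposed, 10_5, was the highest of all for titin-like. On FPKM the means were 25.3 ± 4.61 and 22.2 ± 3.30, the log2 difference was 0.18 (SE 0.11) and 7 exposed clutches lay above the control median.

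ENO3 had the most reads, 770 to 1537 per clutch, and the smallest counting error, 2.55% to 3.60%. It lies on scaffold_129 from 41368 to 46193. Values in maternally-stressed embryos ran from 83.0 CPM (24_28) through a median of 114 to 128 CPM (10_5). In control embryos they ran from 70.5 CPM (5_14) through 89.0 to 105 CPM (5_21). As for titin-like, 5 exposed clutches lay above every control clutch, but the other 3 (24_28, 6_21 and 8_10) were inside the control range, and 2 of them were below the control median. The means were 109 ± 18.0 and 88.8 ± 11.8 CPM (SD, n = 8 clutches per group), which is a log2 difference of 0.28 (SE 0.10). On FPKM they were 43.8 ± 7.51 and 37.8 ± 5.14, with a log2 difference of 0.20 (SE 0.11).

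**Figure D1:**
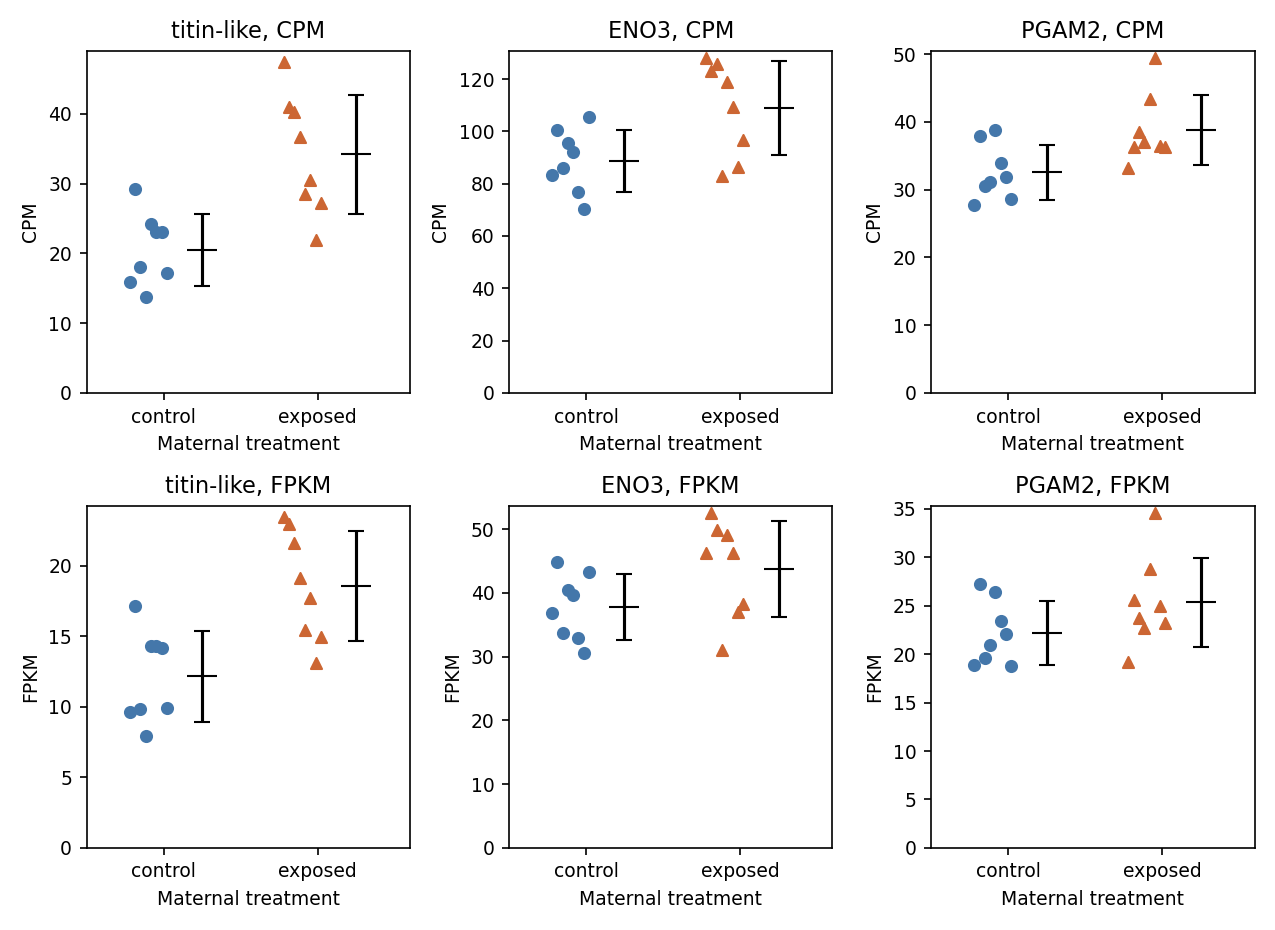
Level of titin-like, ENO3 and PGAM2 in each clutch, in CPM (top) and FPKM (bottom), by maternal treatment. Points are clutches, 8 per group, and bars show the mean with its SD. Titin-like has 5 exposed clutches above the highest control clutch (29.2 CPM), and PGAM2 has 2 above its highest control clutch (38.8 CPM).

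Compared per length, ENO3 was the highest of the 3 genes and titin-like the lowest in nearly every clutch. ENO3 was above PGAM2 in all 8 exposed and all 8 control clutches, with a median ratio of FPKM of 1.68 in each group. PGAM2 was above titin-like in 8 of 8 control clutches (median ratio 1.87) and in 7 of 8 exposed clutches (median ratio 1.37). The exception was clutch 10_5, where PGAM2 had 0.819 times the FPKM of titin-like. The ratio of the glycolytic enzymes to each other thus had the same median in both groups, while that of PGAM2 to titin-like had a lower median in maternally-stressed embryos. No test was made of these ratios, which come from the contrast by which the genes were picked.

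How the 3 genes varied together was read within each group, where the treatment does not enter. PGAM2 and ENO3, though neighbours in glycolysis, showed little relation between clutches on logCPM: Pearson r was 0.07 in exposed and 0.09 in control clutches (n = 8 each, exact permutation tests, p = 0.874 and 0.832). Spearman's rho was -0.19 and -0.02 (exact permutation tests, p = 0.665 and 0.977). Titin-like and PGAM2 had an r of 0.81 in control clutches (exact permutation test, p = 0.0166, n = 8), and a rho of 0.81 (p = 0.0218 from the same test). Adjusted over the 6 relations of this family the p was 0.0997 (0.131 for rho), so the relation did not pass 0.05. Control clutches with the most titin-like transcript, 15_14 and 20_28, also had the most PGAM2.

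In exposed clutches titin-like and PGAM2 had an r of -0.32 (exact permutation test, adjusted p = 0.874, n = 8) and a rho of -0.26 (adjusted p = 0.977 from the same test). Whether this differs from the control value was not tested. Titin-like and ENO3 had an r of 0.61 in exposed clutches (exact permutation test, p = 0.116, adjusted p = 0.347, n = 8; rho 0.71, adjusted p = 0.173) and of -0.14 in control clutches (adjusted p = 0.874; rho -0.07, adjusted p = 0.977). Clutches 10_5, 14_28 and 17_10 were the highest 3 for both genes, whereas 24_28 was high for titin-like (36.8 CPM) and lowest for ENO3 among the exposed. Without 24_28 the r was 0.89 (adjusted p = 0.0310, exact permutation test, n = 7), so that 1 clutch decides whether this relation passes.

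Leaving out the 2 clutches farthest from the median of the first gene of each pair changed some of these values. For titin-like with PGAM2 in control clutches r became 0.89 without 15_14 and 15_5 (n = 6). For titin-like with ENO3 in exposed clutches it fell to 0.25 without 10_5 and 6_21 (n = 6), so that relation rests on those clutches. On log2(FPKM + 1), titin-like and PGAM2 had an r of 0.83 in control clutches (adjusted p = 0.0926, exact permutation test, n = 8). With median-of-ratios scaling the r was 0.90 and passed (adjusted p = 0.00432, exact permutation test, n = 8). For ENO3 with PGAM2 that scaling gave 0.36 in exposed and 0.42 in control clutches (adjusted p = 0.556 for each, exact permutation tests). On log2(FPKM + 1) the same pair had 0.28 and 0.21 (adjusted p = 0.728 for each, exact permutation tests).

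**Figure D2:**
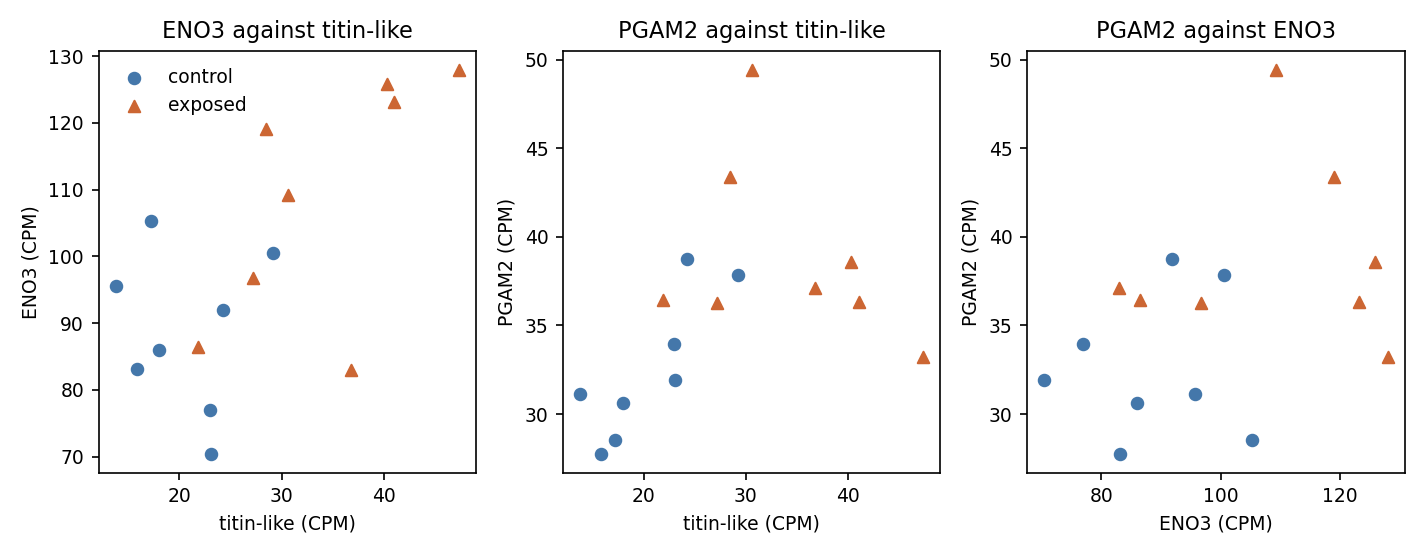
CPM of each pair of genes across the 16 clutches, with control clutches as circles and exposed clutches as triangles. In the middle panel the 8 control clutches rise together for titin-like and PGAM2 (r = 0.81 on logCPM) and the 8 exposed clutches do not (r = -0.32), and in the right panel ENO3 and PGAM2 show no common order in either group.

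Titin-like is one of a pair of adjacent gene models. The next model on scaffold_69, ENSGACG00000000274 (196695 to 364852), starts after a gap of 107 bases, spans 168158 bases and has no name in the study's list. It held 120 CPM on average but only 0.904 FPKM, a ratio of 133 CPM per FPKM against 1.78 for titin-like. Its level was 112 ± 42.3 CPM in maternally-stressed and 128 ± 55.2 CPM in control clutches (SD, n = 8 per group), with a log2 difference of -0.17 (SE 0.23, adjusted p = 0.757 from limma). The range was 66.0 to 188 CPM in exposed and 76.2 to 230.03 CPM in control clutches, so the groups overlapped widely. Over the deviations of 16 clutches from their group means, its r with titin-like was -0.40 (-0.41 with median-of-ratios scaling and -0.35 on FPKM). The strand of these models is not given in the files, and whether the 2 models share reads or are parts of the same gene was not tested.

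The genes that varied most like titin-like were sought among the 9788 genes with a mean of at least 10 CPM, by r over the deviations of the 16 clutches from their group means. These correlations are descriptions, since all genes share the depth and composition of each library. Of the 5 genes most like titin-like, 4 have no name and the other was HPX, hemopexin, a plasma protein that binds free heme (r = 0.85). HPX ran from 140 to 235 CPM (median 160) in exposed clutches and from 102 to 163 CPM (median 131) in control clutches. Within exposed clutches its r with titin-like was 0.78 and within control clutches 0.94, and it was 0.90 with median-of-ratios scaling and 0.80 on FPKM. The same clutches, 10_5, 14_28 and 17_10, were the highest 3 for both genes.

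Several other genes of plasma proteins, most of which are made by the liver in vertebrates, also had high correlations with titin-like. ITIH2, a heavy chain of inter-alpha-trypsin inhibitor, had an r of 0.82 with it. The gene named VTN or SEBOX (vitronectin, an adhesive plasma protein, in the first reading) had 0.71, and KNG1, kininogen, had 0.70. Over 21 plasma genes of the study's supplementary list, a group formed after their values were seen, the median r with titin-like was 0.44. Of these, 10 of 21 had an r of at least 0.5 (47.6%) and 19 of 21 had an r above 0. C6 (-0.45) and A2M (-0.43) went the other way, and SERPIND1 had only 0.18. C6 averaged 7.41 CPM, below the 10 CPM required of the 9788 genes. Over all 9788 genes the median was -0.31 and 5.03% had an r of at least 0.5. With median-of-ratios scaling these medians were 0.56 and 0.12, and the shares were 61.9% and 23.9%. The group holds C6 and C8B but none of the complement C3 genes of that list. The study reported some C3 genes as lower and others as higher in maternally-stressed embryos. Among the plasma genes HPX had a log2 difference between the groups of 0.35 (SE 0.11, adjusted p = 0.142 from limma), which did not pass FDR 0.1.

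**Figure D3:**
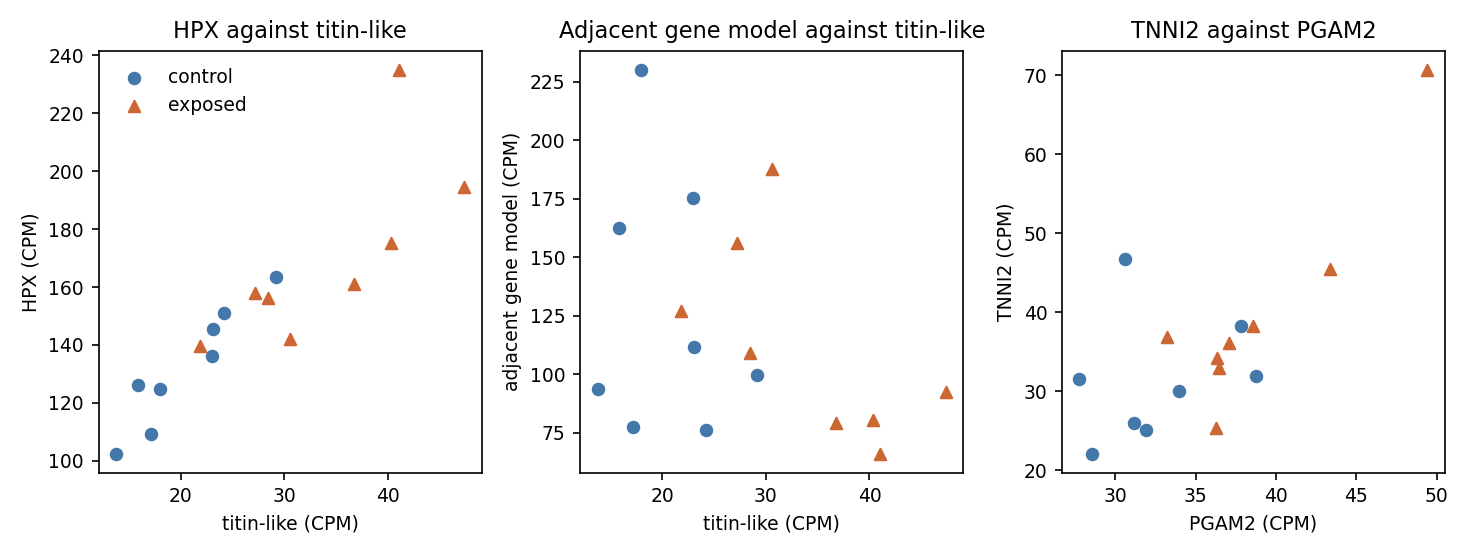
CPM of HPX and of the adjacent gene model against titin-like, and of TNNI2 against PGAM2, in the 16 clutches, with control clutches as circles and exposed clutches as triangles. HPX rises with titin-like in both groups (r = 0.94 in control and 0.78 in exposed clutches on logCPM), the adjacent model does not (r = -0.40), and the clutch at the top right of the last panel is 3_10 with 49.4 CPM of PGAM2 and 70.7 CPM of TNNI2.

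Muscle genes were taken from the same supplementary list, which the study chose on these clutches: MYO18B, MYOM3, tnnt2d, TNNI2 (5 of 5), pvalb or ocm2, COX6A2, FKBP1B, LDHD, MYL6 and CKB (2 of 2). Of these, MYO18B, MYOM3, tnnt2d, TNNI2 and COX6A2 match the symbols of the muscle lists. The other 5 were added for a link to muscle or its energy supply and are less specific, among them CKB, the brain form of creatine kinase. The list was not filtered by level. MYO18B (3.64 CPM), MYOM3 (3.42 CPM) and tnnt2d (7.00 CPM) averaged less than the 10 CPM required of the 9788 genes. Titin-like had a median r of 0.14 with these 10 genes, above its upper quartile of 0.06 over all 9788 genes, and 0 of 10 reached 0.5. Its highest values were 0.36 with COX6A2, the muscle form of a cytochrome c oxidase subunit, and 0.34 with MYL6, a myosin light chain found mainly outside striated muscle. With tnnt2d, a troponin T of the thin filament, r was -0.12. With median-of-ratios scaling the median was 0.25 and 3 of 10 reached 0.5, as did 23.9% of all genes.

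With PGAM2 most of the same list had positive correlations. The median r was 0.52 and 6 of 10 genes reached 0.5, against a median of 0.01 and a share of 3.90% over all 9788 genes. Of the 6, tnnt2d averaged 7.00 CPM, below the 10 CPM required of the 9788 genes. FKBP1B, a protein bound to the calcium release channel of the sarcoplasmic reticulum, had an r of 0.68 (rho 0.62). The gene named pvalb or ocm2, in the first reading the calcium buffer parvalbumin of fast fibres, also had 0.68. TNNI2, the inhibitory troponin subunit of fast fibres, had 0.62 and tnnt2d 0.60 (0.59 and 0.39 with median-of-ratios scaling). The other 2 genes at 0.5 or above were CKB and MYL6, so 4 of the 6 are outside the muscle symbol lists. COX6A2 and MYOM3 went the other way, with an r of -0.44 (-0.77 within exposed clutches) and -0.20. With median-of-ratios scaling the median over the muscle list was 0.50 and 5 of 10 reached 0.5, as did 5.55% of all genes. On log2(FPKM + 1) it was 0.62 and 8 of 10 did, with 14.7% of all genes. The 21 plasma genes had a median r with PGAM2 of 0.15 on logCPM. That median was 0.42 with median-of-ratios scaling and 0.34 on log2(FPKM + 1). These medians pool the groups, which differed for some genes. On logCPM, HPX had an r with PGAM2 of 0.74 within control and -0.50 within exposed clutches, and KNG1 0.75 and -0.37. Other plasma genes kept their sign, such as PLG (0.54 and 0.60) and hp (0.66 and 0.47). Among muscle genes, in the same order, TNNI2 had 0.31 and 0.85, FKBP1B 0.57 and 0.76, and LDHD -0.57 and 0.82. Whether the groups differ was not tested.

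Over the 30 relations of the 3 genes with the 10 muscle genes (n = 16 clutches, permuted within groups), 5 had an unadjusted permutation p under 0.05 for r and 0 had an adjusted p below 0.05, the smallest being 0.137. By rank, tnnt2d and PGAM2 passed (rho 0.77, permutation test, adjusted p = 0.0318). Clutch 3_10 was the highest of all 16 clutches for PGAM2 and for 8 of the 10 muscle genes, with 70.7 CPM of TNNI2 where the median of the exposed clutches was 36.5. It was not the highest for titin-like (30.6 CPM) or ENO3 (109 CPM). Clutches 3_10 and 20_28 lay farthest from the median when PGAM2 was taken as deviations from the group means on logCPM. Without them, the r of PGAM2 was 0.58 with FKBP1B, 0.42 with TNNI2, 0.40 with pvalb or ocm2 and 0.36 with tnnt2d. The relation with the contractile and calcium genes thus rests in good part on these clutches. Within exposed clutches the r of PGAM2 with tnnt2d was 0.98 and within control clutches 0.11, a difference that was not tested. The genes most like PGAM2 over all genes were 5 without a name, led by ENSGACG00000008482 (r = 0.90).

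ENO3 had no r of 0.5 or more with a gene of either list on logCPM. Its median r was -0.02 with the 10 muscle genes and 0.07 with the 21 plasma genes. Over all 9788 genes its median was -0.17. With median-of-ratios scaling the medians were 0.24 and 0.31 (0.11 over all genes) and 5 of 21 plasma genes reached 0.5. Within groups on logCPM, some plasma genes went opposite ways. With ENO3, KNG1 had 0.74 in exposed and -0.33 in control clutches, C8B 0.71 and -0.64, and LCAT,PLA2G15 0.77 and -0.31. A2M had -0.17 and 0.50, and hp was near 0 in both. Shares over all genes within a group were not computed, and whether the groups differ was not tested. Of the 5 genes most like ENO3, 4 have no name and the other was NFASC (2 of 2), a neurofascin, which is an adhesion molecule of axons (r = 0.76). Placed among all 9788 genes by their r, ENO3 came 1250th for titin-like (r = 0.29) and PGAM2 came 1636th (r = 0.21), so neither glycolytic gene was among the genes most like titin-like.

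**Figure D4:**
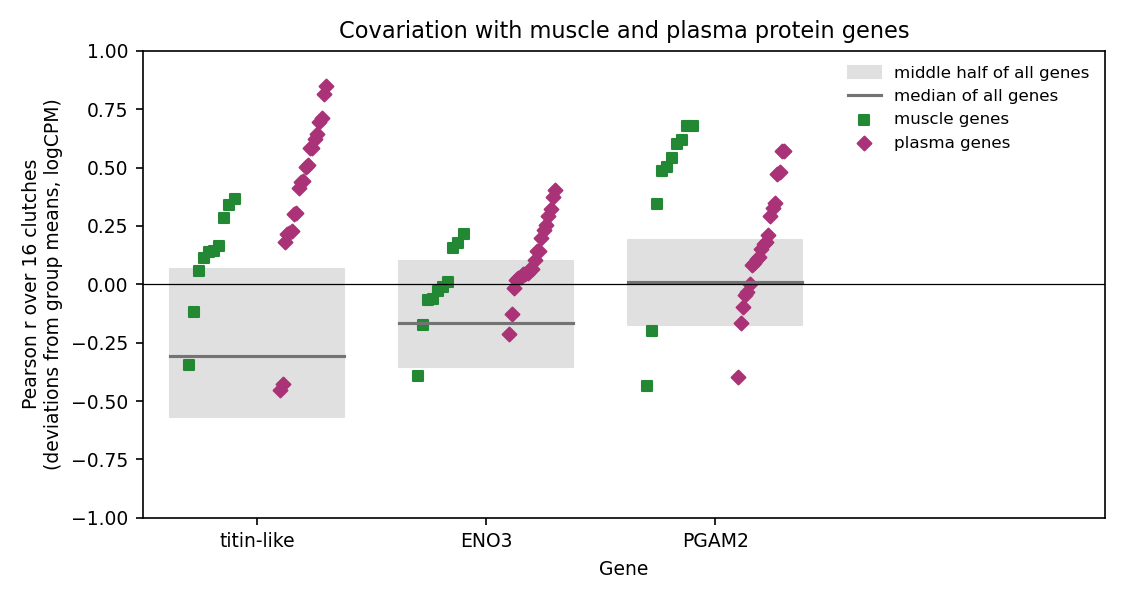
Pearson r of titin-like, ENO3 and PGAM2 with 10 muscle genes (squares) and 21 plasma protein genes (diamonds), over the deviations of 16 clutches from their group means on logCPM. The grey box spans the lower to the upper quartile of all 9788 genes and the line in it their median. The plasma genes sit high for titin-like (median 0.44), the muscle genes sit high for PGAM2 (median 0.52), and both medians lie near 0 for ENO3. These values pool the groups, and some genes differ within them. HPX had 0.74 with PGAM2 in control and -0.50 in exposed clutches, and -0.28 and 0.60 with ENO3. With median-of-ratios scaling the plasma genes have a median of 0.42 for PGAM2, beside 0.50 for the muscle genes.

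Between the groups, the 10 muscle genes had higher means in maternally-stressed embryos, on CPM and on FPKM. The share of all genes that were higher was 34.2% on logCPM and 27.9% on FPKM. Of the muscle genes, 0 of 10 passed FDR 0.1 on logCPM and 0 of 10 passed FDR 0.05 on FPKM in limma. Over all genes, 0.516% passed on logCPM and 0.309% on FPKM. On logCPM 5 of 10 had an unadjusted p under 0.05, where 16.3% of all genes did, and voom on the recovered reads gave the same counts of 0 and 5. On FPKM 2 of 10 did, which is close to the 20.8% of all models. Some of these directions rest on 1 clutch. Without exposed clutch 14_28 the log2 difference of MYOM3 on logCPM went from 0.34 to -0.07, and without exposed clutch 3_10 that of pvalb or ocm2 went from 0.28 to 0.01 (to -0.07 on FPKM). The median log2 difference of the list was 0.29 on logCPM, with a range of 0.23 to 0.36, and 0.24 on FPKM, beside medians of -0.05 and -0.08 over all genes tested. The logCPM values include an added 2.77 CPM, close to the mean level of MYO18B (3.64 CPM) and MYOM3 (3.42 CPM). That narrows the range. With voom on the recovered reads, MYO18B had 0.48, MYOM3 0.70 and tnnt2d 0.45, against 0.27, 0.34 and 0.31 on logCPM. The list was picked by the study for its difference on these clutches, so its direction is not independent evidence.

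Among these genes LDHD, a mitochondrial lactate dehydrogenase, had 23.5 ± 2.94 CPM in maternally-stressed and 19.2 ± 1.24 CPM in control clutches (SD, n = 8 per group, adjusted p = 0.137 from limma). MYO18B, an unconventional myosin needed for sarcomere assembly, had 4.24 ± 0.773 and 3.03 ± 0.564 CPM (adjusted p = 0.142 from limma). The myomesin MYOM3, a protein of the sarcomere's M-band, varied most, with 34.1 CPM in exposed clutch 14_28 and at most 6.81 CPM in any other clutch. Without exposed clutch 3_10, LDHD and COX6A2 passed FDR 0.1 on logCPM, and without exposed clutch 8_10, MYO18B and LDHD did. In those fits 7.07% and 6.23% of all genes passed, so the gain was not limited to these genes. In the main fit on logCPM, the log2 differences of PGAM2 (0.23) and ENO3 (0.28) lay inside the range of the muscle list. That of titin-like (0.66) lay above it there, but not in every fit. With voom titin-like had 0.72, beside 0.70 for MYOM3. Without the clutches high in structured RNA, titin-like (0.51) lay below MYOM3 (1.28), pvalb or ocm2 (0.99), CKB (0.84), tnnt2d (0.61) and TNNI2 (0.54). It was level with FKBP1B (0.51) and above the rest. That fit kept only 3 exposed and 7 control clutches. The 3 exposed include 14_28, the clutch with 34.1 CPM of MYOM3. They also include 3_10, the highest of all clutches for pvalb or ocm2, CKB, tnnt2d and TNNI2. With the structured RNA mean as a covariate, titin-like (0.56) lay below CKB (0.74), MYOM3 (0.71) and pvalb or ocm2 (0.59), and above the rest.

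Measures of depth and library make-up were set beside the 3 genes within each group. Over 18 relations of the genes with reads in genes, the mitochondrial share and the structured RNA mean, r ran from -0.63 to 0.60, with 0 unadjusted p under 0.05 and a smallest adjusted p of 0.540 (exact permutation tests, n = 8 clutches per group). With 8 clutches, relations of moderate size would not pass. On log2(FPKM + 1) the lowest r was -0.81 (rho -0.69), that of PGAM2 with the mitochondrial share in exposed clutches, and its r with structured RNA there was -0.76 (rho -0.88, exact permutation test, adjusted p = 0.130, n = 8). Both had an unadjusted p under 0.05, and neither passed over the 18 relations (adjusted p = 0.192, exact permutation tests, n = 8). Without the 2 clutches farthest from the median of the mitochondrial share, the first r was -0.24. On logCPM the same relation went from -0.63 to 0.28. Without the 2 clutches farthest from the median of structured RNA, the second r on log2(FPKM + 1) was -0.73. Without the 6 clutches high in structured RNA, which leaves 3 exposed and 7 control clutches, the log2 difference on logCPM was 0.51 (SE 0.21) for titin-like, 0.24 (SE 0.13) for ENO3 and 0.28 (SE 0.13) for PGAM2. With the structured RNA mean as a covariate it was 0.56, 0.27 and 0.33. The differences between the groups kept their sign in both settings, with larger standard errors. Both settings rest on RNAs that the study called on this contrast, so neither is a neutral adjustment.

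The second number of the clutch names is shared by clutches of both groups for 5, 21 and 28, while 14 and 2 occur in control clutches only and 10 in exposed clutches only. Titin-like was higher in the exposed clutch or clutches at each shared number, with 47.4 against 13.8 CPM at 5, 21.9 against 17.2 CPM at 21, and a mean of 35.4 CPM over 3 exposed clutches against 24.2 CPM at 28, where all 3 were above the control clutch. ENO3 was higher at 5 (128 against 95.6 CPM) and in 2 of 3 exposed clutches at 28, and lower at 21 (86.5 against 105 CPM). PGAM2 was higher at 21 (36.4 against 28.6 CPM) and little different at 5 (33.2 against 31.2 CPM) and at 28 (38.9 against 38.8 CPM, with 1 of 3 above). These are single clutches, so no test was made. The first number of the names is repeated only among control clutches, in 15_14, 15_2 and 15_5 and in 5_14 and 5_21. Its meaning is not given either, and the permutation tests in control clutches treated these clutches as independent.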

How the data were processed

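Libraries were made by the authors from RNA of whole embryos. Trimmed reads were mapped with TopHat2 2.0.8, and the genome was BROADS1. For 17440 genes the authors deposited logCPM, the log2 of each gene's CPM after a prior equal to 2.77 CPM is added. Each value gave a whole read count to within 3.9e-09 of a read (100% of values within 0.01), and CPM was computed from these reads. The deposited FPKM values, made by the authors with Cufflinks 2.1.1, cover 22456 gene models. Whether the counting used strand is not given in the sources used here.

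Groups were taken from the labels. The fit across all genes was made in R 4.3.3 with limma 3.58.1 (intensity trend, two-sided, Benjamini-Hochberg adjustment), with FDR 0.1 as the threshold on logCPM. The same fit on log2(FPKM + 1), for the 21028 models above 0 in at least 2 clutches, used FDR 0.05. Log2 differences are exposed minus control and include the prior or the pseudocount of 1. A count test was not used because the deposited unit is log2; voom in limma on the recovered reads was an alternative. Correlations within groups were tested with two-sided exact permutations over 8 clutches, and those with muscle genes with 100000 permutations within groups, using Python 3.11.15 and scipy 1.17.1. The steps were tested on simulated data.

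The genes, the lists and the tests were chosen with earlier results of these data known. Named genes are the 3 members, the 5 genes most like each (mean of at least 10 CPM), and the muscle genes of the study's supplementary list, which alone gives gene names. The plasma genes, the single clutches named and the lens and red cell genes given were singled out after their values were seen. Alternatives were median-of-ratios scaling, other filters, pseudocounts and priors, voom, the second name number as a replicate block, structured RNA as a covariate or as a reason to leave out clutches, and each clutch left out in turn. Values by group, by shared name number and by scale for the lists were added after seeing the data. Sequences are not analysed here.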

Additional observations from a re-analysis of the deposited data

How the results depend on the processing

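The log2 differences of titin-like, ENO3 and PGAM2 stayed positive under every alternative run. Some changes from the main fit were larger than its SE. On FPKM, median-of-ratios scaling took ENO3 from 0.20 (SE 0.11) to 0.35 and PGAM2 from 0.18 (SE 0.11) to 0.33. The ranges for titin-like, ENO3 and PGAM2 were 0.51 to 0.74, 0.24 to 0.36 and 0.19 to 0.33 on logCPM. On FPKM they were 0.50 to 0.73, 0.16 to 0.35 and 0.12 to 0.33. With the second name number as a replicate block the differences were 0.68, 0.26 and 0.22 on logCPM and 0.59, 0.19 and 0.18 on FPKM. The meaning of that number is not given, and the block left 47 genes past FDR 0.1 on logCPM (90 without it) and 35 models past FDR 0.05 on FPKM (65 without it).

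Counts over all genes moved more. On logCPM 15 genes passed with median-of-ratios scaling, 21 without a trend, 0 with the structured RNA covariate (1619 with an unadjusted p under 0.05 in limma) and 0 without the clutches high in structured RNA (1532), with a range of 7 to 1233 when 1 clutch was left out. On FPKM 241 models passed with a pseudocount of 0.1, 208 at a mean of at least 1 FPKM, 1 with median-of-ratios scaling and 0 without the clutches high in structured RNA (1932), and leaving out 1 clutch gave 0 (without exposed clutch 17_10 or 24_28, with 3518 and 3337 unadjusted p under 0.05) to 1550. The highest counts came without exposed clutch 3_10. Of the muscle genes, 0 to 2 passed on logCPM when 1 clutch was left out. The structured RNA settings use genes that the study called on this contrast. The cause of these changes was not tested.

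Among the correlations, median-of-ratios scaling turned titin-like with ENO3 in control clutches to 0.24 and titin-like with PGAM2 in exposed clutches to 0.14, and brought titin-like with PGAM2 in control clutches to 0.90, past the threshold. It raised ENO3 with PGAM2 to 0.36 in exposed and 0.42 in control clutches, which did not pass. Leaving out 1 clutch gave -0.15 to 0.40 for ENO3 with PGAM2 in control and -0.0281 to 0.33 in exposed clutches, -0.52 to 0.0173 for titin-like with ENO3 in control and 0.43 to 0.89 in exposed clutches, and 0.73 to 0.91 for titin-like with PGAM2 in control clutches, which passed without 15_5 (adjusted p = 0.0298, exact permutation test, n = 7). On log2(FPKM + 1), ENO3 turned to -0.12 with the mitochondrial share and -0.31 with structured RNA in exposed clutches, and to 0.15 with reads in genes and -0.24 with structured RNA in control clutches, and PGAM2 turned to 0.19 with reads in genes in exposed clutches. PGAM2 had its lowest values there, -0.81 with the mitochondrial share and -0.76 with structured RNA in exposed clutches. The first was -0.24 without the 2 clutches farthest from the median share. None of these passed. At 146 reads in the lowest clutch, titin-like carries a counting error of 8.28%, the largest of the 3 genes.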
